A study of Mus musculus with 6 samples.

Results

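The genes described here are 39 mouse genes of the interferon response and of antigen presentation by class I molecules of the major histocompatibility complex. They were chosen by name and not by a measured value, as the rows of the deposited count matrix that carry a listed gene symbol. The list was, however, drawn up with earlier results of these data known. All 39 were found among the 55401 genes of the matrix, and all 39 passed the filter on low counts, which left 17310 genes for testing. The 39 hold 3 sensors of viral RNA, 4 transcription factors, 10 antiviral effectors, 5 regulators that act through ubiquitin, ISG15 or ADP-ribose, 5 GTPases, 3 subunits of the immunoproteasome, 7 genes of class I presentation and 2 chemokines.

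RNA sequencing was performed on 6 libraries of C2C12 cells, a myoblast line established from mouse muscle that forms myotubes when serum is withdrawn, at 2 d post differentiation in medium with 2% horse serum. Control and *Phf2* KO cells had 3 libraries each. *Phf2* encodes a histone demethylase, and the study asked what it does in C2C12 myotubes. *Phf2* KO cells had received a mixture of 4 plasmids, each with Cas9, ZsGreen and a different guide to *Phf2*, whereas control cells had received a plasmid with Cas9, ZsGreen and a guide without a target in the mouse genome. The sample labels call the control wild type, and the study's methods call it mock. Both kinds of cells were sorted for ZsGreen, kept as pools without cloning and frozen before they were differentiated. The replicates were wells of one experiment on these pools, so the p-values measure the spread between wells, and the effect of losing *Phf2*, of cutting DNA and of a difference between the pools cannot be told apart.

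Interferons are secreted proteins that cells release when they sense viral nucleic acids. They bind receptors at the cell surface and activate JAK kinases, which phosphorylate STAT proteins. A complex that holds STAT2 and IRF9 then binds the interferon-stimulated response element (ISRE) in front of its target genes, and dimers of STAT proteins bind the gamma-activated sequence (GAS). Many target genes encode antiviral proteins, and others raise the display of peptides on class I molecules. Such peptides are cut by the immunoproteasome, carried into the endoplasmic reticulum by the TAP transporter and loaded with the help of tapasin. Muscle fibres show little class I at rest and are known to show more of it in inflamed muscle.

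The sequences in front of 6 members are shown because they hold these elements and because their genes differed in spread between wells. They come from RefSeq (build GRCm38.p6) and run 5′ to 3′ on the strand of the gene, ending at the base before the annotated start, or 1 base earlier for *B2m*. Capitals mark a match to the ISRE core, which is GAAA, any 2 bases and GAAA again (TTTC, any 2 bases and TTTC where it lies on the other strand), or to the GAS, TTC, any 3 bases and GAA. *Isg15* (chr4:156200819-156201068, minus strand), *Ifit3* (chr19:34583279-34583528, plus strand) and *Bst2* (chr8:71537473-71537722, minus strand) hold 3, 2 and 2 ISRE matches, which overlap each other in *Isg15* and *Bst2*, and in *Bst2* a GAS match overlaps the first of them. *Igtp* (chr11:58199306-58199555, plus strand) holds 1 of each, *B2m* (chr2:122147437-122147685, plus strand) holds 1 ISRE match, and *Irf1* (chr11:53769764-53770013, plus strand) holds 1 GAS match and no ISRE match.
Isg15: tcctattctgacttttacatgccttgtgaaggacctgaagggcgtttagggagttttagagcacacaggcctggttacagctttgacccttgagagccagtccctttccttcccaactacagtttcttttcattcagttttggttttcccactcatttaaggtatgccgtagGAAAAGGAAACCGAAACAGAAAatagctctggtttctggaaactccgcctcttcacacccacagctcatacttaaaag
Ifit3: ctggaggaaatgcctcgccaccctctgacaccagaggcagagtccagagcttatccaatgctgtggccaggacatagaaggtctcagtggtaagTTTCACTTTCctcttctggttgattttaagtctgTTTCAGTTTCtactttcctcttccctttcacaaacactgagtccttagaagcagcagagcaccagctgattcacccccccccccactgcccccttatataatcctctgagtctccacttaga
Bst2: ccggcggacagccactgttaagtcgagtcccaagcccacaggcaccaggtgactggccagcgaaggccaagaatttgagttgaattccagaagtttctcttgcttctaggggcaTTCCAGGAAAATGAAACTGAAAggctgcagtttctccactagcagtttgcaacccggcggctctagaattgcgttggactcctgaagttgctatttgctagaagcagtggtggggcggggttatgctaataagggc
Igtp: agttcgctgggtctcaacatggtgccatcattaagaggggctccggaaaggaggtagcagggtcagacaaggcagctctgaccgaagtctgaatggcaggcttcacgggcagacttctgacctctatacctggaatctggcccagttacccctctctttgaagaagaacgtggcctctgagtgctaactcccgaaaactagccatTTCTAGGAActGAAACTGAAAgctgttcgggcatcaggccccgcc
B2m: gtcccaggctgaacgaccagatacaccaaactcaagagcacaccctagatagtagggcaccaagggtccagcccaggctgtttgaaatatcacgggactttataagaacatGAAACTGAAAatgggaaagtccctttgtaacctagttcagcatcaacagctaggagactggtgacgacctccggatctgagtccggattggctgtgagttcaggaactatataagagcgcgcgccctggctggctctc
Irf1: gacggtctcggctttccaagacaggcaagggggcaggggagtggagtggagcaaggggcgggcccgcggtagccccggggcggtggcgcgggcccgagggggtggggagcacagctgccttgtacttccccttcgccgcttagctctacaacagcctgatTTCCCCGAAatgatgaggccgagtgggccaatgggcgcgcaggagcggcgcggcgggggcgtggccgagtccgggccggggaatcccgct

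Over the 250 bases before the start, an ISRE match on either strand was present in 12 of the 30 members that the promoter table holds (40.0%) and in 3.46% of the 27025 genes of the table. A GAS match was present in 5 of 30 members (16.7%) and in 8.13% of genes. The 12 members with an ISRE match were *Stat2*, *Ifit1*, *Ifit3*, *Isg15*, *Rsad2*, *Bst2*, *Gbp2*, *Gbp3*, *Igtp*, *Irgm1*, *B2m* and *Cxcl10*. The 5 with a GAS match were *Bst2*, *Irf1*, *Igtp*, *Psmb8* and *Ifit2*. These matches are letters in a window and are given as a description. *Usp18*, *Dhx58*, *Ifi27*, *Tap2*, *Nlrc5*, *Ccl5*, *Parp9*, *Parp14* and *Iigp1* had no entry. The annotated window of *Tapbp* lay within annotated exons and is not shown, but *Tapbp* is counted among the 30 members and among those without a match.

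The libraries held between 52526109 and 67502788 estimated counts. *Phf2* was examined first, as a check of the labels. Mean CPM (a gene's share of its library's counts, scaled with TMM factors) was 100.8 ± 4.73 in control and 39.1 ± 1.78 in *Phf2* KO libraries (SD, n = 3 each), and the groups did not overlap. At an adjusted p below 0.05 (quasi-likelihood test of edgeR, Benjamini-Hochberg adjustment over the 17310 genes), *Phf2* KO cells had 557 genes higher and 565 lower. Libraries of the same replicate number deviated together from their group means, as given with the processing, so values are also given within each number, and a fit that blocks on the number is given where it changes a call.

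**Figure D1:**
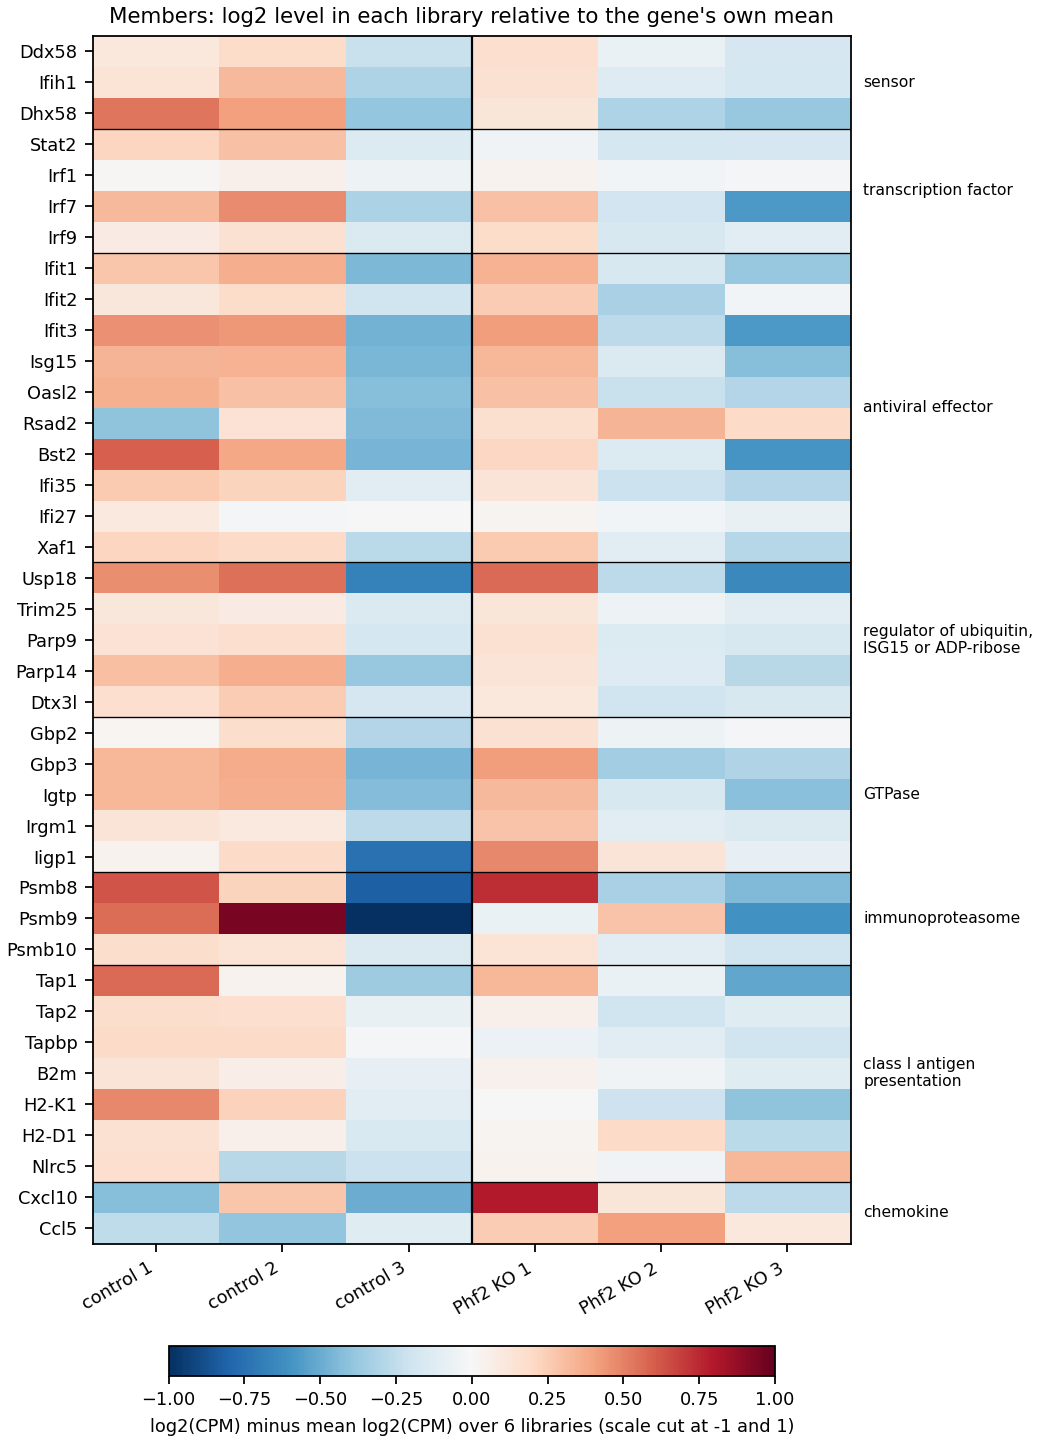
Log2 CPM of each of the 39 members (rows, by role) in each of the 6 libraries (columns), minus the mean over the 6 libraries of that gene. Control replicate 3 was the lowest control library for 36 members, and *Phf2* KO replicate 1 was the highest *Phf2* KO library for 34.

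The members varied widely between wells of the same group, and mostly in the same order of wells. Control replicate 3 was the lowest of the 3 control libraries for 36 of 39 members (92.3%), against 34.1% of all genes tested. *Phf2* KO replicate 1 was the highest of the 3 *Phf2* KO libraries for 34 of 39 members (87.2%), against 33.8% of all genes tested. The other 3 members of the control count were *Ccl5*, *Nlrc5* and *Ifi27*, lowest in replicate 2, and the other 5 of the *Phf2* KO count were *Rsad2*, *Psmb9*, *H2-D1*, *Nlrc5* and *Ccl5*. The median deviation of the members from their mean over the 6 libraries was 0.18, 0.19 and -0.27 on the log2 scale in control replicates 1, 2 and 3. In *Phf2* KO replicates 1, 2 and 3 it was 0.16, -0.13 and -0.20. Within each group, therefore, 1 well stood apart for these genes, and the lower *Phf2* KO wells lay near the lowest control well.

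The size of this spread was compared with that of other genes. The ratio of the highest to the lowest control library had a median of 1.39 over the members, 1.17 over all genes tested and 1.10 over the 10923 genes whose mean was 5 CPM or more. In *Phf2* KO cells the medians were 1.34, 1.17 and 1.11. The ratio exceeded 1.5 in 19 of 39 members in control cells and in 12 of 39 in *Phf2* KO cells, against 24.99% and 25.26% of all genes tested and 2.68% and 2.36% of these 10923 genes. The share in *Phf2* KO cells, 30.8% of members, was thus near that of all genes tested, and *Psmb8*, *Psmb9*, *Nlrc5*, *Rsad2* and *Ccl5* had a mean below 5 CPM. Members with an ISRE match had a median ratio of 1.72 among control libraries, from 1.15 (*B2m*) to 2.09 (*Bst2*), and the 18 members whose window held none had a median of 1.33, from 1.07 (*Irf1*) to 4.20 (*Psmb9*). Among *Phf2* KO libraries these medians were 1.66 and 1.33. This is a description over few genes that share the same libraries, and neither wells nor members are replicates of the motif.

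Differences between the groups were small beside this spread. Of the 39 members, 1 passed the threshold, *Tapbp*, which was lower in *Phf2* KO cells, against 6.48% of all genes tested in either direction and 3.26% that were lower. At an unadjusted p below 0.05 the number was 4 of 39 (*Tapbp*, *Ccl5*, *Rsad2* and *Tap2*), against 3366 of the 17310 genes tested. The fitted log2 fold change was below 0 in 32 members and above 0 in 7, with a median of -0.12, whereas the median over all genes tested was -0.00096. It ranged from -0.45 in *Psmb9* to 0.51 in *Ccl5*. The groups did not overlap in 3 of 39 members (*Tapbp*, *Rsad2* and *Ccl5*), against 25.1% of all genes tested. The 1 lower and 2 higher of these stood against 12.2% and 12.9% of all genes. In bulk RNA, fewer cells that express a gene and less RNA per cell cannot be told apart.

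The count of members below 0 depended on single wells. Without control replicate 2 or without *Phf2* KO replicate 3, 24 of 39 members were below 0, with a median log2 fold change of -0.03 in both fits. Without control replicate 3 or without *Phf2* KO replicate 1, 34 of 39 were below 0, with medians of -0.28 and -0.26. The median over all genes tested was within 0.0054 of 0 in each of the 4 fits.

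**Figure D2:**
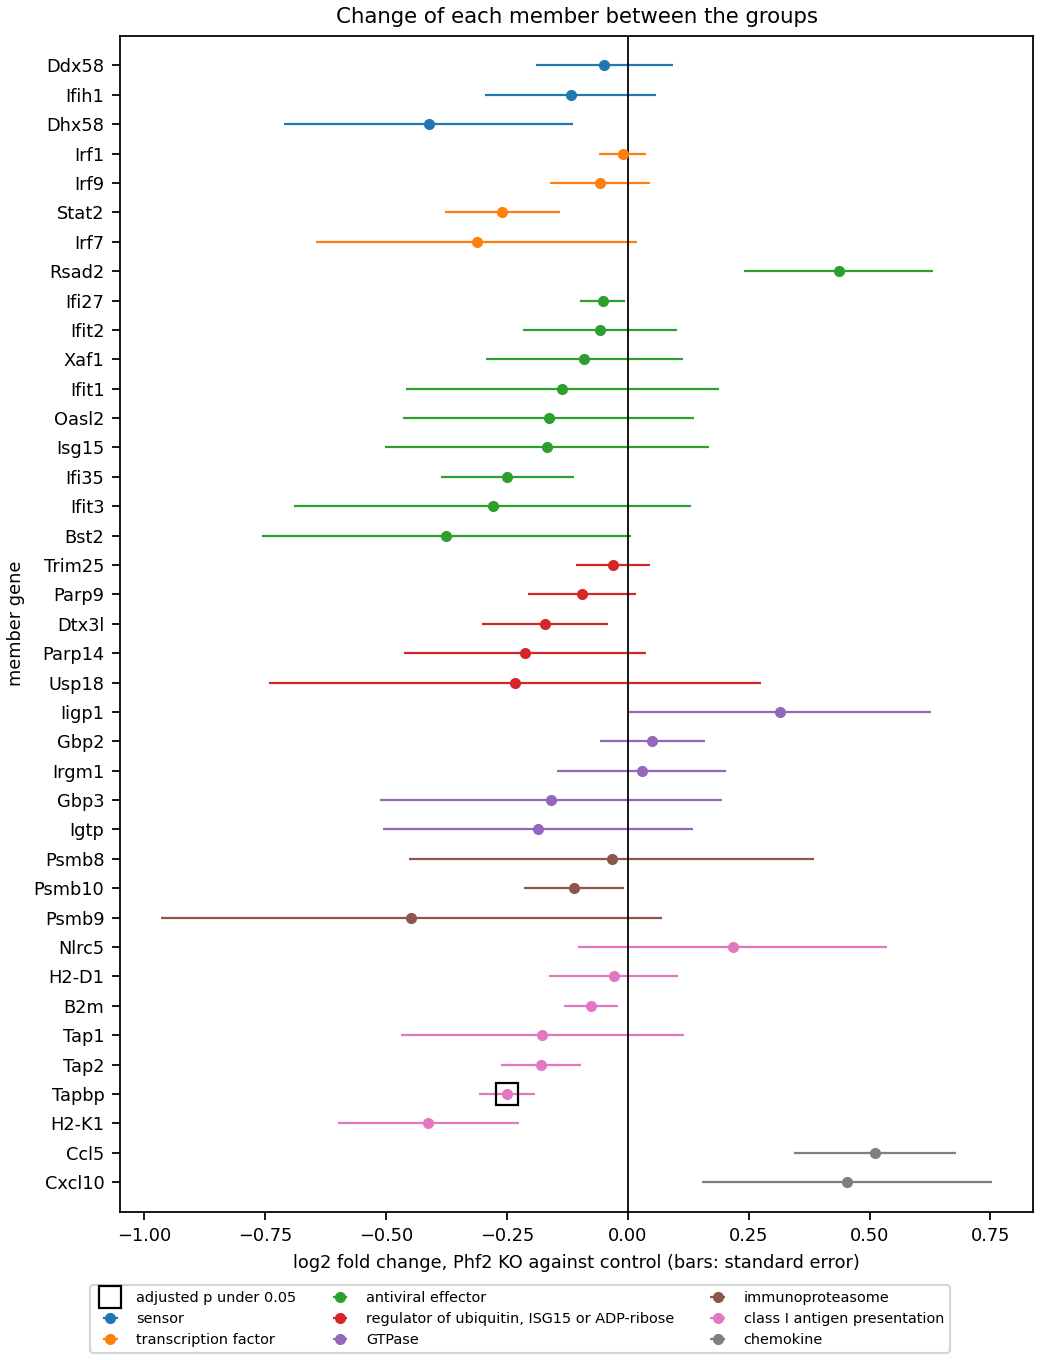
Log2 fold change of each of the 39 members in *Phf2* KO against control cells by edgeR, with its standard error as a bar, coloured by role. *Tapbp* (-0.25) carries the only square, which marks an adjusted p below 0.05, and *Ccl5* (0.51) has the highest value.

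When *Phf2* KO and control libraries of the same number were set against each other, the direction of the list changed with the number. The median difference over the 39 members was -0.01 on the log2 scale in number 1, with 21 members lower, and -0.36 in number 2, with 35 lower. In number 3 it was 0.03, with 14 lower. Within the 3 numbers, 12 members were lower each time and 2 were higher each time (*Rsad2* and *Ccl5*), so that 35.9% had the same sign in all 3, against 41.5% of all genes tested. The 2 directions were unequal among the 39 members but not among the 17310 genes tested, of which 3569 were lower and 3606 higher each time. The 12 that were lower each time held 5 of the 7 class I genes (*Tap1*, *Tap2*, *Tapbp*, *B2m* and *H2-K1*) and 4 of the 10 antiviral effectors.

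**Figure D3:**
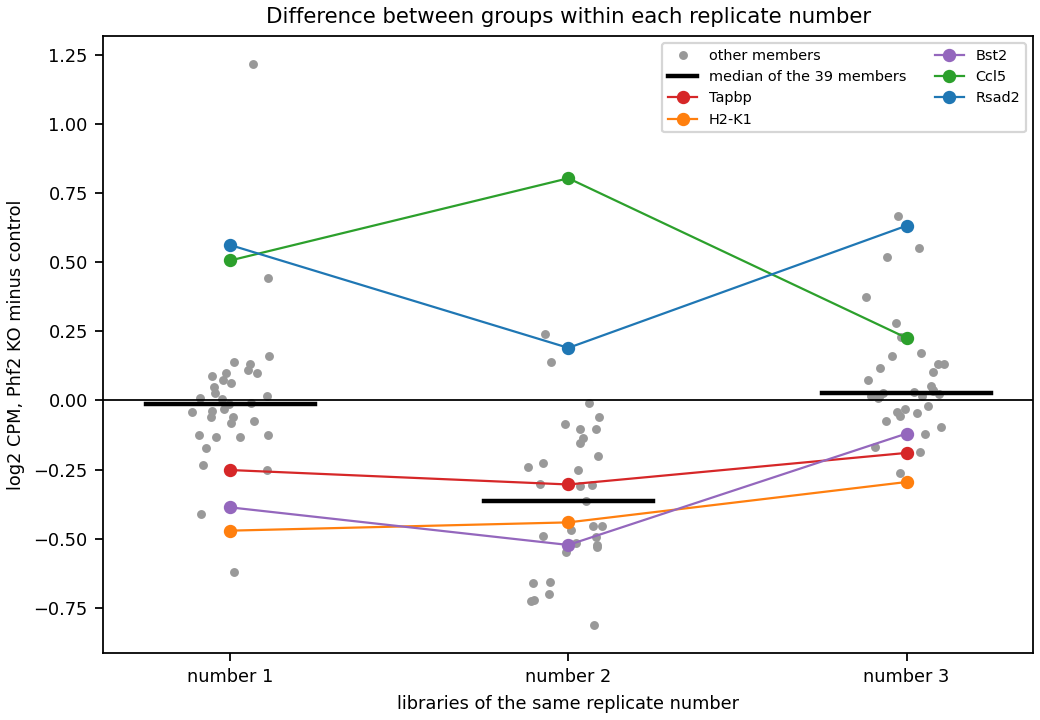
Difference in log2 CPM between the *Phf2* KO and the control library of each replicate number for the 39 members (points), with the median as a bar and 5 members joined by lines. The median was -0.01, -0.36 and 0.03 in numbers 1, 2 and 3, while *Tapbp* and *H2-K1* were below 0 and *Ccl5* and *Rsad2* above 0 in each.

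The sensors of viral RNA are *Ddx58* and *Ifih1*, which encode RIG-I and MDA5, and *Dhx58*, which encodes their relative LGP2. None of the 3 passed the threshold by edgeR, and 0 had an unadjusted p below 0.05. *Dhx58* (ENSMUSG00000017830, chr11:100694884-100704271) had one of the 3 lowest fold changes of the list. Its level was 28.2, 25.9 and 14.9 CPM in control replicates 1, 2 and 3 and 21.2, 15.7 and 14.9 CPM in *Phf2* KO replicates 1, 2 and 3. Control replicate 3 lay with the lower *Phf2* KO wells, and the groups overlapped. Its log2 fold change was -0.41 ± 0.30 (SE), and the adjusted p of edgeR's quasi-likelihood test was 0.562. Without control replicate 3 it passed the threshold at an adjusted p of 0.0201, 1 of 4 members (*Dhx58*, *H2-K1*, *Stat2* and *Tapbp*, all lower) that did so, against 5.80% of all genes tested, and over all leave-out fits the adjusted p ran from 0.0201 to 0.810. *Ddx58* and *Ifih1* had log2 fold changes of -0.05 and -0.12.

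Among the transcription factors, *Stat2* and *Irf9* encode parts of the complex that binds the ISRE, *Irf7* encodes an inducer of interferon genes, and *Irf1* encodes an activator of class I genes. None passed the threshold by edgeR, and 0 had an unadjusted p below 0.05. *Stat2* (ENSMUSG00000040033, chr10:128270559-128292849) was measured at 140.3, 147.8 and 109.6 CPM in control replicates 1, 2 and 3 and at 118.0, 106.8 and 107.3 CPM in *Phf2* KO replicates. Control replicates 1 and 2 were above every *Phf2* KO well, and control replicate 3 lay among the *Phf2* KO wells. The fitted log2 fold change was -0.26 ± 0.12 (SE), with an adjusted p of 0.315 by edgeR's quasi-likelihood test. *Stat2* passed the threshold with DESeq2 (adjusted p = 0.0256, 10.3% of the genes given an adjusted p called) and without control replicate 3 (0.00202), and its adjusted p ran up to 0.520 over the alternatives. *Irf1*, whose window holds a GAS match, had the smallest ratio of highest to lowest well of the 39 members in both groups (1.07 and 1.05). It lay between 71.6 and 76.8 CPM in all 6 libraries, with a log2 fold change of -0.01. *Irf7* and *Irf9* had log2 fold changes of -0.31 and -0.06.

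Several antiviral effectors shifted strongly between wells. *Ifit3*, which encodes a protein of the IFIT complex that binds viral RNA, lies at chr19:34583531-34588731 (ENSMUSG00000074896). Its level was 156.2, 153.9 and 81.8 CPM in control replicates 1, 2 and 3 and 151.6, 94.9 and 76.5 CPM in *Phf2* KO replicates 1, 2 and 3. *Phf2* KO replicate 1 matched the higher controls and the other *Phf2* KO wells lay near control replicate 3. Its log2 fold change was -0.28 ± 0.41 (SE, edgeR's quasi-likelihood test, adjusted p = 0.807). Since 41.1% of the 75-base words of *Ifit3* transcripts also occur in its neighbour *Ifit3b*, the share of reads that belongs to each is uncertain. *Isg15* (ENSMUSG00000035692), which encodes a ubiquitin-like modifier, had the same wells high and low. It was measured at 57.3, 57.6 and 32.8 CPM in control and at 57.0, 40.9 and 33.6 CPM in *Phf2* KO replicates 1, 2 and 3. The groups overlapped almost over their whole range, and the log2 fold change was -0.17 ± 0.34 (SE, edgeR adjusted p = 0.864).

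*Bst2* (ENSMUSG00000046718, chr8:71534255-71537456) encodes tetherin, a membrane protein that holds budding virus on the cell. It was measured at 146.1, 126.3 and 69.8 CPM in control and at 111.7, 87.9 and 64.3 CPM in *Phf2* KO replicates 1, 2 and 3. The groups overlapped, yet within each number the *Phf2* KO well was lower. The fitted log2 fold change was -0.38 ± 0.38 (SE), with an adjusted p of 0.702 by edgeR's quasi-likelihood test. Blocked on the replicate number, the fit gave an adjusted p of 0.0175 and called 4 members (*Bst2*, *Ifi35*, *H2-K1* and *Tapbp*, all lower), against 7.60% of all genes tested, and over the other alternatives on all 6 libraries the adjusted p of *Bst2* reached 0.712. *Ifi35* behaved alike, with an adjusted p of 0.402 without the block and 0.0470 with it. *Ifi27* (ENSMUSG00000064215), one of the members with the highest level, moved little: it lay between 125.1 and 140.9 CPM in all 6 libraries.

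*Rsad2* (ENSMUSG00000020641, chr12:26442746-26456452) encodes viperin, an enzyme that makes a chain-terminating nucleotide. Its level was low, at 2.84, 4.16 and 2.76 CPM in control replicates 1, 2 and 3 and 4.19, 4.74 and 4.28 CPM in *Phf2* KO replicates 1, 2 and 3. Every *Phf2* KO well was above every control well, the lowest by a narrow margin over control replicate 2. Its log2 fold change was 0.44 ± 0.20 (SE) and did not pass the threshold (edgeR's quasi-likelihood test, adjusted p = 0.239). The other 4 antiviral effectors (*Ifit1*, *Ifit2*, *Oasl2* and *Xaf1*) had log2 fold changes from -0.16 to -0.06, and their groups overlapped.

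The regulators are *Usp18*, an enzyme that removes ISG15 and restrains the receptor, *Trim25*, a ubiquitin ligase for RIG-I, and *Parp9*, *Parp14* and *Dtx3l*, which act on ADP-ribose or ubiquitin. None of the 5 passed the threshold by edgeR or had an unadjusted p below 0.05, and their log2 fold changes were between -0.23 and -0.03. *Usp18* (ENSMUSG00000030107), named here for its spread after its values were seen, was at 21.3, 22.5 and 9.65 CPM in control and at 22.8, 12.8 and 9.84 CPM in *Phf2* KO replicates 1, 2 and 3. Its lowest and highest wells differed by 2.33 times in control cells and 2.32 times in *Phf2* KO cells, while the group means were 17.8 ± 7.09 and 15.1 ± 6.79 CPM (SD, n = 3), a difference smaller than either SD. All 5 regulators were lower in number 2 and higher in number 3. *Parp9* and *Dtx3l* lie head to head and share 458 exon bases, 9.40% of those of *Parp9* and 8.0% of those of *Dtx3l*. Reads from the shared bases cannot be told apart without strand.

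The GTPases *Gbp2*, *Gbp3*, *Igtp*, *Irgm1* and *Iigp1* encode proteins of the defence against intracellular pathogens. None passed the threshold by edgeR or had an unadjusted p below 0.05, and 3 of the 5 (*Gbp2*, *Irgm1* and *Iigp1*) had log2 fold changes above 0, of 0.05, 0.03 and 0.31. *Igtp*, whose window holds both motifs, was at 32.6, 33.3 and 19.1 CPM in control and at 32.3, 23.1 and 19.3 CPM in *Phf2* KO replicates 1, 2 and 3. Its wells fell in the order seen for *Isg15*. *Igtp* shares 7.80% of its 75-base words with *Irgm2*, and *Gbp3* shares 2.06% with *Gbp7*.

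The 7 genes of class I presentation were all lower in number 1, and 5 of 7 (71.4%) were lower in each of the 3 numbers, against 3569 of the 17310 genes tested. This role was singled out after its values were seen and holds few genes. *Tapbp* (ENSMUSG00000024308, chr17:33915899-33929292, plus strand) encodes tapasin, which holds empty class I molecules at the TAP transporter. It was measured at 347.9, 348.6 and 303.0 CPM in control replicates 1, 2 and 3 and at 292.2, 282.4 and 265.6 CPM in *Phf2* KO replicates 1, 2 and 3. Every *Phf2* KO well was below every control well, and control replicate 3 came closest. The means were 333.2 ± 26.2 and 280.1 ± 13.4 CPM (SD, n = 3), and the log2 fold change was -0.25 ± 0.057 (SE; edgeR's quasi-likelihood test, adjusted p = 0.0203).

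The call of *Tapbp* was not stable. Blocked on the replicate number its adjusted p was 0.00189, and over the alternatives on all 6 libraries it ran from 5.53e-04 with DESeq2 to 0.143 with limma on log2(TPM + 1). It was lost without control replicate 1 (0.0796), control replicate 2 (0.118), *Phf2* KO replicate 2 (0.0769) or *Phf2* KO replicate 3 (0.0993), with edgeR in each case. Of the exon bases of *Tapbp*, 24.9% overlap the antisense gene *Gm19412* and 4.11% overlap *Zbtb22*. The library kit was directional, but whether the counting used strand is not given in the sources used here.

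*H2-K1* (ENSMUSG00000061232, chr17:33996017-34000347, minus strand) encodes a class I heavy chain. Its level was 62.1, 52.4 and 41.3 CPM in control replicates 1, 2 and 3 and 44.8, 38.6 and 33.7 CPM in *Phf2* KO replicates 1, 2 and 3. Only control replicate 3 and *Phf2* KO replicate 1 kept the groups from separating, and within each number the *Phf2* KO well was lower. The fitted log2 fold change was -0.41 ± 0.19 (SE), with an adjusted p of 0.324 by edgeR's quasi-likelihood test. With the block it was 0.00139, and without control replicate 3 it was 0.0433, while without other wells it reached 0.543. *H2-K1* shares 2.38% of its 75-base words with *H2-Q10*. C2C12 cells descend from C3H mice, whose class I alleles differ from the reference strain.

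*B2m* (ENSMUSG00000060802) encodes beta-2-microglobulin, the light chain that all class I molecules share. It was at 408.1, 391.6 and 354.3 CPM in control and at 385.7, 364.6 and 344.3 CPM in *Phf2* KO replicates 1, 2 and 3. The groups overlapped, and each *Phf2* KO well was below the control well of its number. Its log2 fold change was -0.08 ± 0.056 (SE, edgeR adjusted p = 0.525, 0.256 with the block). *Tap1* and *Tap2*, the chains of the peptide transporter, had log2 fold changes of -0.18 and -0.18, and the second had an unadjusted p of 0.0479 and an adjusted p of 0.251 by edgeR. *Nlrc5*, the activator of class I genes, was near 1 CPM in every library, with at most 80 estimated counts, and had a log2 fold change of 0.22 ± 0.32 (SE).

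*H2-D1*, the other heavy chain, depended on the scale. Its counts gave a log2 fold change of -0.03 ± 0.13 (SE), whereas its deposited TPM was 56.1, 51.8 and 46.0 in control and 51.1, 142.7 and 80.9 in *Phf2* KO replicates 1, 2 and 3, and limma on log2(TPM + 0.1) gave 0.71. The *Phf2* KO wells with the high TPM had 68.6 and 49.9 CPM, which were not raised to that extent. *H2-D1* shares 4.25% of its 75-base words with *H2-Q1*.

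The immunoproteasome subunits *Psmb8*, *Psmb9* and *Psmb10* replace standard catalytic subunits after interferon. *Psmb9* (ENSMUSG00000096727) had the lowest fold change of the list, -0.45 ± 0.52 (SE), but rested on few reads. It was at 0.82, 1.08 and 0.26 CPM in control and at 0.54, 0.69 and 0.37 CPM in *Phf2* KO replicates 1, 2 and 3, and no library had more than 63 estimated counts. *Psmb9* shares 212 exon bases, 5.79% of its own, with *Tap1* on the other strand, which had 371 to 687 estimated counts. Reads from these bases cannot be told apart without strand. *Psmb8* and *Psmb10* had log2 fold changes of -0.03 and -0.11, and none of the 3 passed the threshold by edgeR or had an unadjusted p below 0.05.

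Both chemokines had log2 fold changes above 0, unlike most of the list, and neither passed the threshold. *Ccl5* (ENSMUSG00000035042, chr11:83525778-83530518, minus strand) encodes a chemokine that draws T cells and monocytes. It was at 3.56, 3.23 and 3.92 CPM in control replicates 1, 2 and 3 and at 5.06, 5.64 and 4.58 CPM in *Phf2* KO replicates 1, 2 and 3. Every *Phf2* KO well was above every control well. The fitted log2 fold change was 0.51 ± 0.17 (SE) and did not pass the threshold (edgeR's quasi-likelihood test, adjusted p = 0.0933, and 0.113 with the block). *Cxcl10* (ENSMUSG00000034855), which encodes a ligand of the receptor CXCR3, was at 3.56, 5.79 and 3.40 CPM in control and at 8.28, 5.20 and 3.99 CPM in *Phf2* KO replicates. The groups overlapped, and the log2 fold change was 0.45 ± 0.30 (SE) with all wells and 0.11 without *Phf2* KO replicate 1, the highest well.

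**Figure D4:**
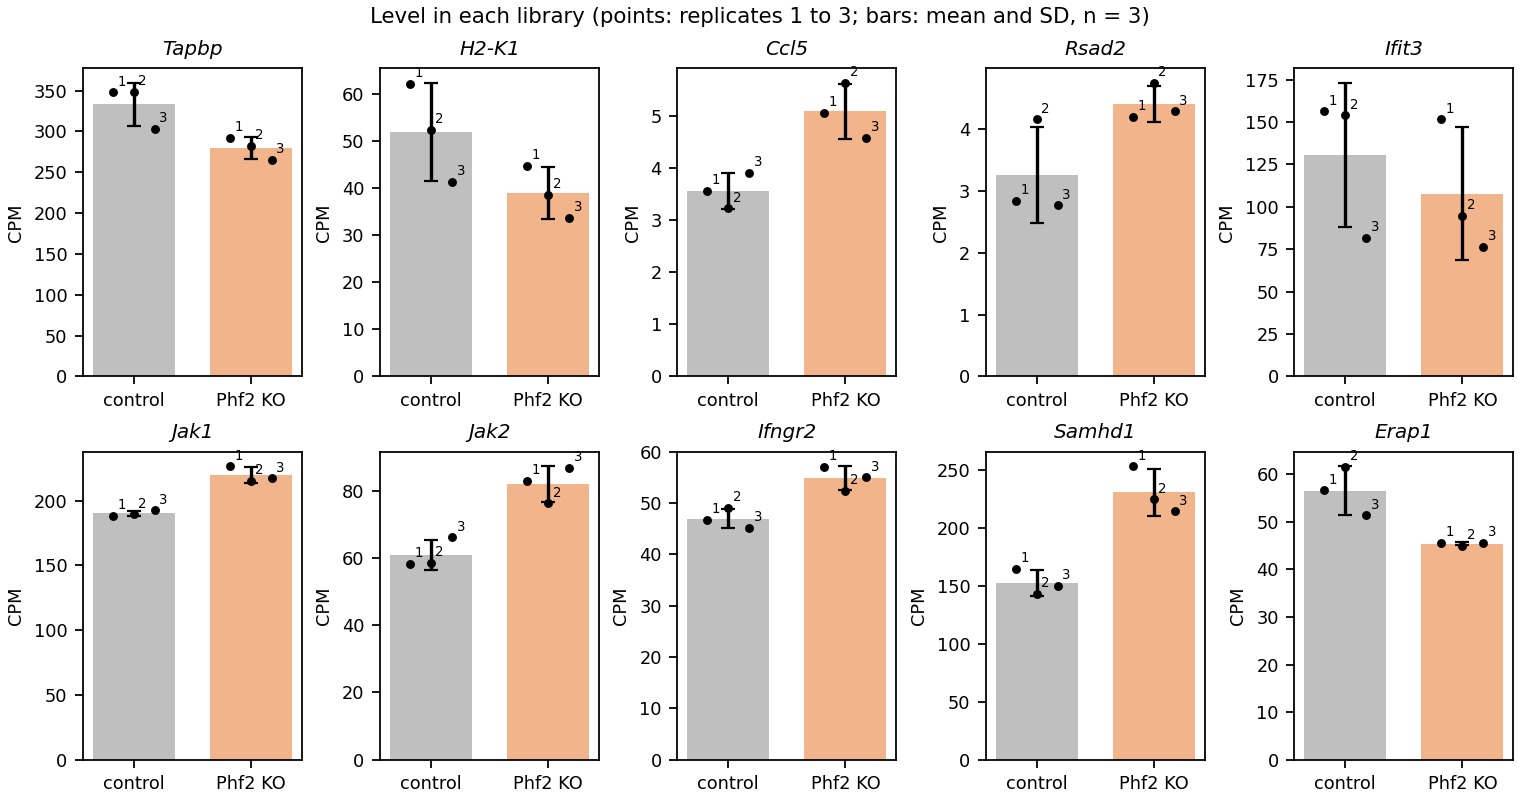
CPM of 5 members (upper row) and of 5 other genes of the pathway (lower row) in each library, with bars for the mean and SD of 3 libraries per group and the replicate number beside each point. *Tapbp* was lower and *Ccl5* and *Rsad2* higher in every *Phf2* KO well, *Ifit3* was spread over both groups, and *Jak1*, *Jak2*, *Ifngr2* and *Samhd1* were higher and *Erap1* lower in every *Phf2* KO well.

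Levels of different members can be compared only per transcript length, for which the deposited TPM was used. *B2m* was the most abundant member, at 964.8 ± 64.6 TPM in control and 922.8 ± 32.9 TPM in *Phf2* KO cells (SD, n = 3). *Ifi27* (312.1 ± 13.8 and 306.0 ± 5.83 TPM), *Bst2* (310.3 ± 107 and 240.5 ± 59.8 TPM) and *Tapbp* (272.8 ± 19.7 and 232.6 ± 5.52 TPM) followed, and *Ifi27* and *Bst2* did not differ in control cells beyond their spread. *Ifit3* and *Isg15* came next, at 161.5 ± 51.5 and 151.0 ± 42.9 TPM in control cells, again within their spread. At the low end were *Psmb9*, at 1.14 ± 0.76 and 0.58 ± 0.54 TPM, and *Nlrc5*, at 0.29 ± 0.12 and 0.61 ± 0.06 TPM. The groups of *Nlrc5* did not overlap in TPM but did in CPM (0.88 ± 0.15 and 1.02 ± 0.14), so its difference also depended on the scale. On this scale the heavy chains were far below their light chain, at 38.7 ± 7.57 TPM for *H2-K1* and 51.3 ± 5.08 TPM for *H2-D1* in control cells. Each is 1 of several chains that bind that light chain. These levels are uncertain, because the TPM of *H2-D1* did not follow its counts in all libraries and C3H class I alleles differ from the reference strain.

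**Figure D5:**
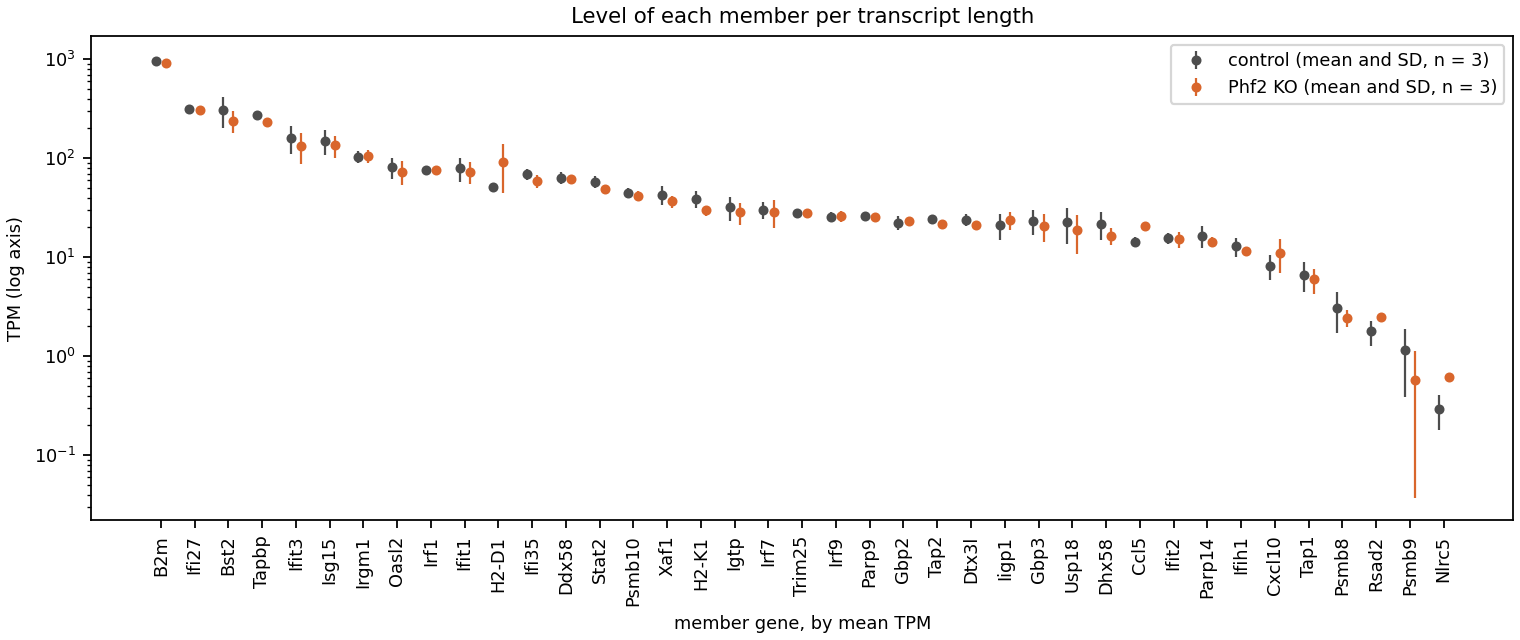
Mean TPM (log axis) with SD of each of the 39 members in control and *Phf2* KO cells, n = 3 each, ordered by the mean of all 6 libraries. Levels ran from 964.8 TPM for *B2m* to 0.29 TPM for *Nlrc5* in control cells, and the mean of *H2-D1* in *Phf2* KO cells (91.6 TPM) was raised by replicates 2 and 3 alone.

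Beyond the members, the interferon and antigen presentation pathway was read from a list of 174 other symbols, of which 169 were in the matrix and 137 were tested. Of these 137, 5 passed the threshold as higher and 1 as lower, against 3.22% and 3.26% of all genes tested. The interferons themselves were at or near 0: of 21 ligand genes, 15 had a count of 0 in all 6 libraries, *Ifnb1* among them, and *Ifnz* alone passed the filter, with at most 45 estimated counts. *Ifng* had at most 7 estimated counts in a library.

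Among receptors and signal transducers, 4 of 15 tested were higher and 0 lower by edgeR. An unadjusted p below 0.05 was found in 5 of 15, against 3366 of the 17310 genes tested. *Jak2*, a kinase of the interferon-gamma receptor, was at 58.2, 58.6 and 66.1 CPM in control and at 82.8, 76.2 and 86.7 CPM in *Phf2* KO replicates 1, 2 and 3. All *Phf2* KO wells were above all control wells, and the log2 fold change was 0.43 ± 0.063 (SE; edgeR's quasi-likelihood test, adjusted p = 0.00111). It did not pass with limma on log2(TPM + 1) or log2(TPM + 0.1) (adjusted p = 0.0745 and 0.0693). *Jak1*, the kinase used by all interferon receptors, had a log2 fold change of 0.21 ± 0.042 (SE; edgeR adjusted p = 0.00877, and 0.0559 without control replicate 2). *Jak1* did not pass with limma on log2(TPM + 1). *Ifngr2*, a chain of the interferon-gamma receptor, had 0.22 ± 0.057 (edgeR adjusted p = 0.0328, above the threshold when any 1 library was left out and with either limma fit). *Il10rb*, a chain that the receptor of interferon-lambda shares with other cytokine receptors, had 0.32 ± 0.089 (edgeR adjusted p = 0.0486), and it did not pass with the block (0.0628), with exactTest (0.0555), without a filter (0.0602), with either limma fit or without any 1 library. *Ifnlr1*, the other chain of that receptor, had a count of 0 in all 6 libraries. *Ifnar1*, *Ifnar2* and *Ifngr1*, the remaining receptor chains, had log2 fold changes of 0.11, 0.16 and 0.02 and did not pass the threshold (edgeR adjusted p = 0.271, 0.214 and 0.924). Control replicate 3 was the lowest control library in 5 of these 15 genes, near the 34.1% of all genes tested and unlike in the members.

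Other interferon-stimulated genes showed the pattern of the members. Control replicate 3 was the lowest control library for 70 of the 77 tested, against 34.1% of all genes tested. Of the 77, 1 passed the threshold in the reported fit, against 6.48% of all genes tested. That gene, *Samhd1*, which encodes an enzyme that breaks down deoxynucleotides, was at 164.6, 142.8 and 150.0 CPM in control and at 252.9, 224.4 and 214.1 CPM in *Phf2* KO replicates 1, 2 and 3. The groups were far apart, and the log2 fold change was 0.60 ± 0.068 (SE; edgeR's quasi-likelihood test, adjusted p = 3.62e-04). It passed the threshold under every alternative run. With the replicate number as a block, *Oas1a*, *Ifi27l2a*, *Lgals3bp*, *Shisa5* and *Ube2l6* of the 77 also passed as lower and *Trim30a* as higher. Their edgeR adjusted p in that fit ran from 0.0015 to 0.033, and the fit called 7.60% of all genes tested. *Erap1*, the peptidase that trims peptides for class I, was the 1 gene of 28 other antigen presentation genes that passed, at a log2 fold change of -0.32 ± 0.065 (SE; edgeR adjusted p = 0.0101, but 0.0688 without control replicate 2 and 0.0529 without *Phf2* KO replicate 2). *Erap1* did not pass with either limma fit. Of 16 sensors, adaptors and kinases, 0 passed the threshold by edgeR. An unadjusted p below 0.05 was found in 2 of 16, against 3366 of the 17310 genes tested.

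Marker lists of cell types were examined beside these results. All 10 muscle markers were tested, 9 had log2 fold changes below 0, and 6 were lower past the threshold by edgeR, against 3.26% of all genes. The list had a summed level of 7499 to 8687 CPM in control and 6012 to 6587 CPM in *Phf2* KO libraries. Among controls the sum was lowest in replicate 3, which was the lowest control library in 7 of 10 muscle markers, against 34.1% of all genes tested. Of 8 fibroblast markers, 7 were tested, 1 was higher and 1 lower past the threshold, and control replicate 3 was the lowest control library in all 7. Whether these shifts have a part in the values of the interferon genes was not tested. Macrophage markers summed to 2.97 to 3.57 CPM in control and 2.76 to 4.02 CPM in *Phf2* KO libraries, and *Adgre1* was at 0 in each. None of the 10 lymphocyte markers was tested, and 5 were at 0 in all 6 libraries. The 8 endothelial markers summed to at most 1.51 CPM.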

How the data were processed

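Polyadenylated RNA was sequenced by the authors as paired reads from 3 control and 3 *Phf2* KO libraries and aligned to mm10 with HISAT2, as the submitters' processing notes also name. The deposited matrix holds estimated counts per gene, which the authors obtained with StringTie as whole numbers without normalization. StringTie derives them from coverage, so they are not tallies of reads, and counts divided by 4 were tried. The deposited per-library tables give TPM, the authors' signal per transcript length, and only rows of reference genes were used. The annotation version and the strand setting of counting are not given in the sources used here.

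After filterByExpr (minimum count 10) and TMM scaling, 17310 genes were tested with the quasi-likelihood test of edgeR 4.0.16 in R 4.3.3, with robust dispersions, a prior count of 0.125 and Benjamini-Hochberg adjustment, at a threshold of 0.05. This departs from the authors' edgeR exactTest, which was an alternative. Total estimated counts were 52526109 to 67502788, and the common biological coefficient of variation was 0.135, so 3 wells per group limit the precision. Coordinates are those of GENCODE M21 (GRCm38), and promoters those of RefSeq.

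The members, gene lists and tests were chosen with earlier results of these data known. Members named in full were those past the threshold, those whose groups do not overlap, the 5 other members with the highest TPM and the 3 highest and 3 lowest fold changes. Of the other pathway genes, at most 8 past the threshold and the interferon ligands and receptors were named. Pathway genes that passed with the replicate block but not in the reported fit were named as well. One gene that this rule names is not reported here. *Stat2*, *Usp18*, *Irf1*, *Igtp*, *Ifi35*, *H2-D1* and the remaining members were named after their values were seen. Alternatives were exactTest, DESeq2 1.42.0, DESeq2's size factors, library size alone, a filter at 1 CPM in 3 libraries or no filter, counts divided by 4, rows of a symbol summed, the replicate number as a block, limma 3.58.1 on log2(TPM + 1) and on log2(TPM + 0.1), and leaving out each library.

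The replicate numbers come from the sample labels, which name no shared day or batch. Over 10923 genes with mean CPM of 5 or more, deviations from the group mean had correlations of 0.183, 0.345 and 0.234 between libraries of the same number and at most 0.0899 between others. These are correlations across genes, which are not independent replicates.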

Additional observations from a re-analysis of the deposited data

How the results depend on the processing

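The number of members past the threshold was 1 (*Tapbp*, lower) in the reported fit and in 7 other fits of all 6 libraries. It was 2 with DESeq2 (*Stat2* and *Tapbp*), and 4 in the fit with a replicate block (*Ifi35*, *H2-K1*, *Bst2* and *Tapbp*, against 7.60% of all genes), all lower. It was 0 with limma on log2(TPM + 1) and 0 with limma on log2(TPM + 0.1), where 4 and 5 members had an unadjusted p below 0.05. Leaving out 1 library gave 0 to 4 members. The 4 (*Dhx58*, *H2-K1*, *Stat2* and *Tapbp*, against 5.80% of all genes) came without control replicate 3, and 1 (*Tapbp*) without *Phf2* KO replicate 1. With edgeR, 0 passed without control replicate 1 or 2 or without *Phf2* KO replicate 2 or 3, where 2, 4, 2 and 3 members had an unadjusted p below 0.05. In the reported fit 3366 of the 17310 genes tested were below that unadjusted level. The number over all genes is not given for the limma fits or those without 1 library. Of the other pathway genes, 6 passed in the reported fit, 11 with DESeq2, 13 with the block (5 higher and 8 lower), 1 and 2 with limma on log2(TPM + 1) and log2(TPM + 0.1), and 2 to 12 when 1 library was left out. *Il10rb* lost its call with the block, exactTest, no filter, both limma fits and in every fit without 1 library. *Ifngr2* lost it with both limma fits and in every fit without 1 library, and *Jak2* with both limma fits. *Erap1* lost it with both limma fits and without control replicate 2 or *Phf2* KO replicate 2. *Jak1* lost it with limma on log2(TPM + 1) and without control replicate 2. Of all genes, 1122 passed, 158 and 178 with the same limma fits, and 468 to 1039 when 1 library was left out. In fits without 1 library fewer samples were used. Otherwise the cause was not tested.

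No member passed the threshold in the opposite direction under any alternative run. On counts of all 6 libraries, between 31 and 32 members were below 0 (of 37 with the CPM minimum and of 39 otherwise), against 29 of 39 with limma on TPM and 24 to 34 of 39 when 1 library was left out. Estimated counts of *Psmb9* (at most 63 in a library) and *Nlrc5* (at most 80) limit what can be seen of either.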
